A study of Mus musculus with 21 samples.

Results

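The kinesin superfamily was followed through ribosome-bound and total RNA of the embryonic mouse forebrain and kidney. Its members were taken by name alone, as every row of the expression files whose symbol starts with Kif and a number, which gave 38 of 23827 rows, each symbol on 1 row. The 21 libraries form 7 groups of 3 independent samples, all from mice at embryonic day 14.5 that carry the Gt(ROSA)26Sor-mCherry-Rpl10a+/- allele, a Cre-dependent mCherry-tagged ribosomal protein that lets polysomes be captured with an antibody against mCherry (translating ribosome affinity purification, TRAP). In embryos with Sox2Cre+/-, whose Cre recombines in the cells of the whole embryo proper, total RNA gave the brain transcriptome and kidney transcriptome groups, and captured RNA of the same tissue samples gave the brain translatome and kidney translatome groups. In embryos with Cdh5CreERT2+/-, a Cre of endothelial cells that was induced by tamoxifen given by gavage to the dams, captured RNA gave the brain EC and kidney EC groups. In embryos with Emx1Cre+/-, whose Cre marks cells of the dorsal telencephalon and their progeny, it gave the Emx1-lineage group. A lysate holds RNA of every cell of the organ, so RNA carried along without a tagged ribosome is part of each captured library, a sample may pool the organs of more than one embryo, and the tagged allele goes back to a targeted embryonic stem cell clone.

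Kinesins are motor proteins that walk along microtubules. Those of the Kif1, Kif3, Kif5, Kif13, Kif16 and Kif17 genes carry vesicles, organelles, RNA or ciliary cargo, and in neurons they supply axons and dendrites. Another set builds and moves the mitotic spindle or completes cell division, and is transcribed mainly in dividing cells. Others shorten microtubules, serve in cilia or act in Hedgehog signalling. The members were read by textbook role in 5 lists: neuronal transport (6 genes), mitosis and cytokinesis (12), broadly expressed transport and microtubule regulation (10), cilia and Hedgehog signalling (6) and others (4).

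Libraries held between 21760652 and 79231692 reads, and the members took between 0.239% of reads in a kidney translatome library and 0.704% in a brain transcriptome library. The 9 endothelial markers summed to 3125 ± 75.4 RPKM (reads scaled to transcript length and to mapped reads; mean ± SD, n = 3) in the brain EC group against 165.5 ± 12.9 in the brain translatome, and to 2134 ± 164 in the kidney EC group against 359.4 ± 13.6 in the kidney translatome. Brain EC, kidney EC and Emx1-lineage libraries each ran in a sequencing lane of their own, so lane and group cannot be told apart for them. In these bulk samples fewer cells of a type and less RNA per cell cannot be told apart. A difference was called at an adjusted p under 0.001. Kif1b, a carrier of mitochondria and synaptic vesicle precursors and the gene given as the marker of the set, was detected in all 21 libraries, between 20.8 and 101 RPKM.

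Of the 5 role lists, neuronal transport had the largest median organ difference (log2 fold change 4.42 in total RNA). Its genes were picked for a role in neurons, and with earlier results of these data known. The ranking therefore describes the lists and is not a test of them. Kif5a, a heavy chain of conventional kinesin found in neurons (chromosome 10, 127225695 to 127266348, minus strand, GRCm38.p6), stood at 61.9, 58.1 and 63.1 RPKM in the brain transcriptome libraries and at 0.522, 0.56 and 0.575 RPKM in the kidney transcriptome libraries. The groups did not overlap, and the log2 fold change of brain over kidney was 7.17 ± 0.06 (SE, adjusted p = 6.1e-14). Kif5c, the other neuron-rich heavy chain (chromosome 2, 49619286 to 49774778, plus strand), read 134, 133 and 137 RPKM in brain and 7.31, 6.3 and 7.13 RPKM in kidney, a log2 fold change of 4.47 ± 0.08. Kif1a, which carries synaptic vesicle precursors along axons (chromosome 1, 93015455 to 93102039, minus strand), was at 93.4, 86.7 and 97.4 RPKM in brain and at 2.62, 1.79 and 2.36 RPKM in kidney. Its log2 fold change was 5.54 ± 0.13 (adjusted p = 3.0e-11). Kif21b, a regulator of microtubule growth in dendrites and axons (chromosome 1, 136131390 to 136178001, plus strand), was the most abundant member per length in the brain translatome, with 135, 151 and 156 RPKM against 7.67, 7 and 6.11 RPKM in the kidney translatome. Kif3c, a partner of Kif3a in the kinesin-2 motor, had the smallest organ difference of the 5 that were called, with a log2 fold change of 2.84 ± 0.05 in total RNA. Kif17, a dendritic carrier, was low in both organs, at 0.544 ± 0.021 RPKM in the brain transcriptome and 0.607 ± 0.066 in the kidney transcriptome (n = 3 each), and was the neuronal member that did not pass the test (log2 fold change 0.08 ± 0.15, adjusted p = 0.65).

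**Figure D1:**
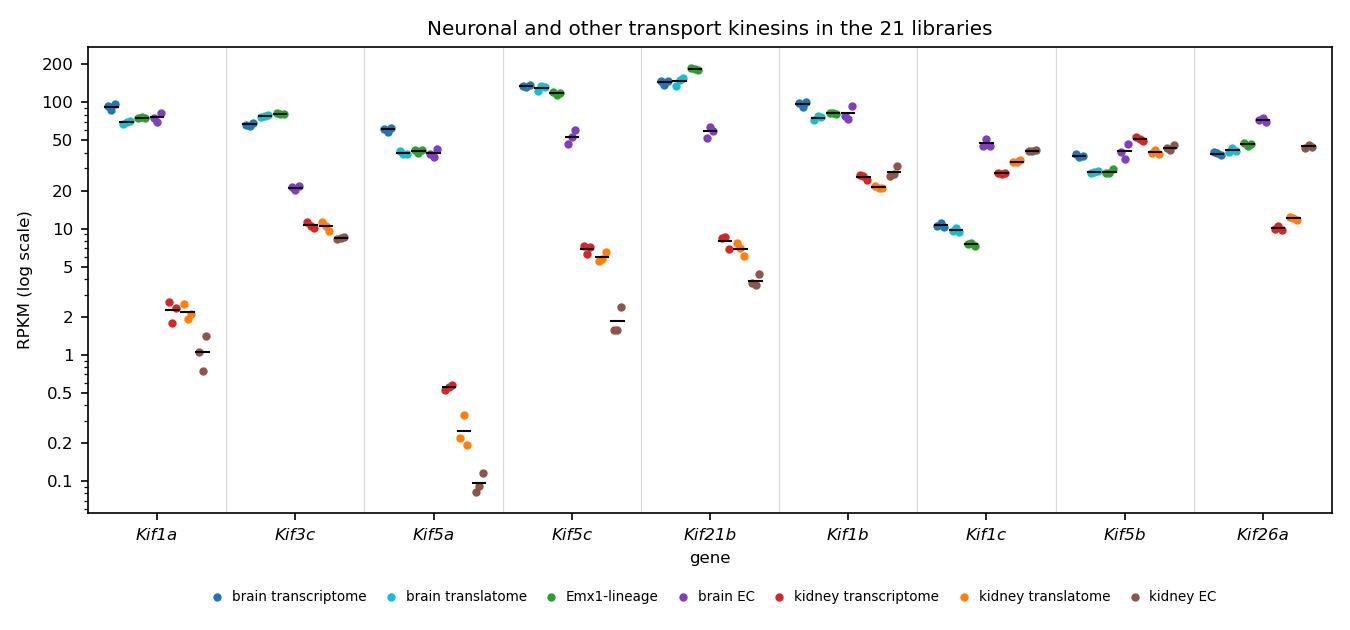
RPKM on a log axis of 9 kinesins that are not mitotic, with 1 point for each of the 21 libraries and a black bar at the mean of each group of 3. Kif5a is at 61.0 RPKM in the brain transcriptome and 0.552 in the kidney transcriptome; in brain EC, Kif1a and Kif5a lie at the level of the brain translatome while Kif3c, Kif5c and Kif21b lie below it.

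Of all 38 members, 14 were higher in the brain transcriptome, 18 were lower and 6 did not pass, where 53.5% of the 19841 rows tested were called, 27.2% as higher and 26.3% as lower. Among members over 5 RPKM in these libraries, 29 of 31 were called, against 68.2% of 10412 rows over that level. In the translatomes the split was 13 higher, 18 lower and 6 not past the threshold of 37 tested, with 53.4% of 19241 rows called, 27.2% as higher and 26.2% as lower. There 27 of 29 members over 5 RPKM were called, and the share of all rows over that level was not computed. By role, 5 of 6 neuronal kinesins were higher in brain in both kinds of RNA and 10 of 12 mitotic kinesins were lower, with the mitotic members outside the near-zero Kif2b spanning log2 fold changes of -1.23 to -0.27 in total RNA. All 8 neuron markers were higher in brain as well (median of the log2 fold changes 7.60 in total RNA).

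The broadly expressed list split between the organs. Kif1b was at 97.4 ± 4.6 RPKM in the brain transcriptome and 25.5 ± 1.1 in the kidney transcriptome (log2 fold change 2.35 ± 0.07). Kif21a, a microtubule growth regulator, was also higher in brain (2.98 ± 0.07), as were Kif3a (1.47 ± 0.06), Kif3b (0.96 ± 0.04) and the microtubule depolymerase Kif2a (0.63 ± 0.04). Kif1c, a carrier of vesicles and of RNA into cell protrusions, went the other way, with 10.5, 11.1 and 10.3 RPKM in brain and 27.5, 27.1 and 27.6 RPKM in kidney (log2 fold change -1.18 ± 0.04). Kif16b, an endosomal motor, was lower in brain by more, at -1.74 ± 0.08. Kif5b, the conventional kinesin of most cell types, was lower in brain by -0.24 ± 0.05 in total RNA (adjusted p = 8.1e-04), a call that was lost in the single fit of all 21 samples and without brain transcriptome replicates 2 or 3 or kidney transcriptome replicates 1 or 2 (adjusted p up to 0.0079). In the translatomes its log2 fold change was -0.32 ± 0.05 and the call held in every alternative run.

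Kif12, known as a modifier of polycystic kidney disease (chromosome 4, 63157948 to 63172145, minus strand), was the member closest to a kidney-only row. It had 31.7, 33.2 and 39.3 RPKM in the kidney transcriptome libraries, while the 3 brain transcriptome libraries held 1 read of it together. The ratio of read rates was 11508 with an exact 95% interval from 2065 to 454596, which covers counting error only. In the translatomes, 2100 kidney reads stood against 0 brain reads, at least 1070-fold higher in kidney when the brain group is set at 3 reads over its libraries. Within kidney Kif12 fell from transcriptome to translatome (log2 fold change -1.37 ± 0.09, adjusted p = 7.7e-07) and again from translatome to EC (-1.54 ± 0.10, adjusted p = 3.3e-07), where its libraries read 3.82, 3.34 and 3.64 RPKM. The 8 nephron and ureteric epithelium markers were all lower in kidney EC too, at 11.9% to 30.0% of their translatome level by mean RPKM.

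Kif26a and Kif26b, a pair of atypical kinesins that bind microtubules and act in signalling, were distributed in opposite ways between the organs. Kif26a (chromosome 12, 112143974 to 112181747, plus strand) had 40.3, 39.5 and 38 RPKM in the brain transcriptome and 9.89, 10.5 and 9.78 RPKM in the kidney transcriptome (log2 fold change 2.15 ± 0.04). Kif26b, which is needed for kidney development, had 5.75, 4.55 and 5.61 RPKM in brain and 26.7, 28.2 and 23.9 RPKM in kidney (-2.12 ± 0.09). Neither pair of groups overlapped, and both calls held in every alternative run.

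The makeup of the Kif1, Kif3, Kif5, Kif21 and Kif26 subfamilies was unlike in the 2 organs. Shares were computed per library from RPKM, which is per length. Of the summed Kif5 signal in the brain translatome, Kif5c made 65.7% ± 1.51, Kif5a 20.1% ± 1.24 and Kif5b 14.2% ± 0.33 (mean ± SD, n = 3). In the kidney translatome Kif5b made 86.7% ± 1.07. The Kif1 genes were divided nearly evenly between Kif1a (45.0% ± 0.46) and Kif1b (48.7% ± 0.35) in the brain translatome, whereas in the kidney translatome Kif1c (59.1% ± 1.13) and Kif1b (37.1% ± 0.78) made up the sum and Kif1a 3.82% ± 0.49. Kif3c took 62.3% ± 0.57 of the Kif3 signal in the brain translatome and 36.4% ± 1.80 in that of kidney. Kif21b took 78.9% ± 2.14 of the Kif21 signal in the brain translatome and 54.3% ± 1.38 in that of kidney. The Kif13 pair was closer, with Kif13a at 69.1% ± 0.848 in the brain translatome and 72.1% ± 0.294 in that of kidney. Groups of 3 cannot go below p = 0.10 in an exact permutation test, so these shares are given with their SD and no test.

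**Figure D2:**
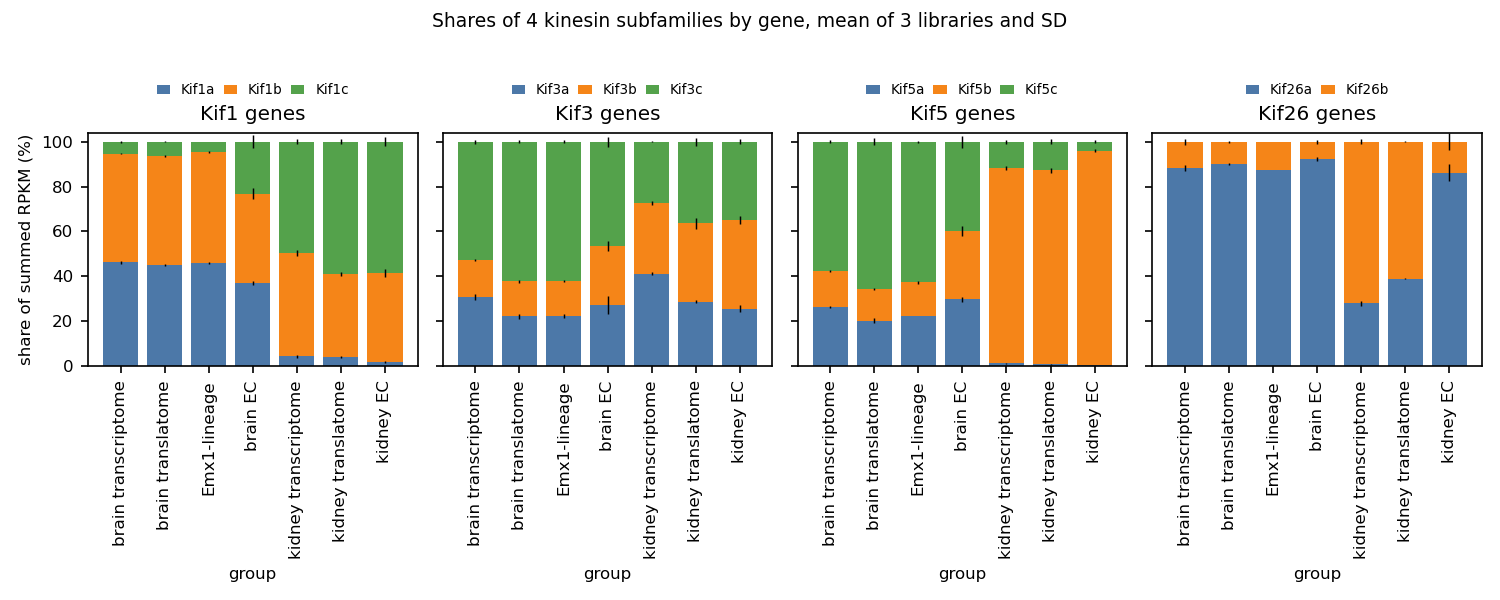
Stacked bars of the share of summed RPKM (percent, axis from 0) of each gene in the Kif1, Kif3, Kif5 and Kif26 subfamilies for the 7 groups, as the mean of 3 libraries with the SD as error bars at the top of each segment. The Kif5 signal is 65.7% Kif5c in the brain translatome and 95.8% Kif5b in kidney EC, and Kif26a makes 27.8% of the Kif26 signal in the kidney transcriptome and 86.1% in kidney EC.

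The mitotic kinesins formed the second pattern. Kif11, the tetrameric motor that pushes spindle poles apart, had 27.7, 24.4 and 24.5 RPKM in the brain transcriptome and 41.9, 39.1 and 41.1 RPKM in the kidney transcriptome (log2 fold change of brain over kidney -0.48 ± 0.05, adjusted p = 1.2e-05). Kif20a, a cytokinesis motor, had the largest organ difference of the list in total RNA, with 29.4, 25.8 and 24.8 RPKM in brain and 70.5, 75.1 and 69.6 RPKM in kidney (-1.23 ± 0.06). Kif18a, which trims spindle microtubules, was the detected mitotic kinesin that did not pass (-0.27 ± 0.09, adjusted p = 0.016). With scaling by total counts alone, without composition factors, it passed (-0.46, adjusted p = 5.1e-04), and 11 of 12 mitotic kinesins were lower. All rows then split into 4534 higher and 6384 lower in place of 5398 and 5218. Kif2b, a depolymerase, had 3 reads in all 21 libraries together and was not informative. The 12 proliferation genes, among them Mki67 and Top2a, lie outside the rule and were chosen with earlier results of these data known. All 12 were lower in the brain transcriptome (median -0.85). Reads of Kif4, a chromosome-bound motor, could be shared with its pseudogene copy Kif4-ps, which had 1 read.

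**Figure D3:**
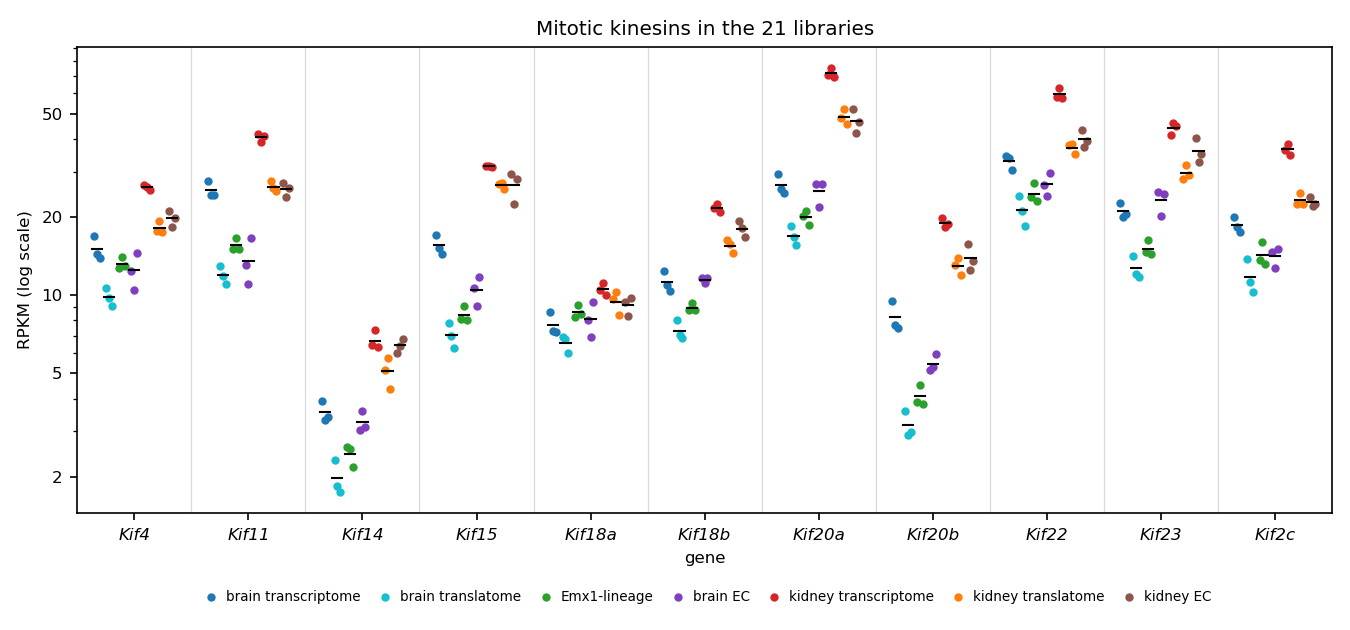
RPKM on a log axis of the 11 detected mitotic kinesins, with 1 point for each of the 21 libraries and a black bar at the mean of each group of 3. For Kif11 the brain translatome mean (12.0) lies below the brain transcriptome (25.5), and the kidney groups (25.6 to 40.7) lie at or above it.

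Because the mitotic members moved together, their promoters were searched for 2 motifs of cell cycle genes, TTTGAA, the cell cycle genes homology region, and CCAAT, the box bound by NF-Y. RefSeq promoters on GRCm38.p6, from 250 bases before to 50 after the start set by the promoter entry, matched 31 of the 38 members. Both strands were searched. That start was not always the outer end of the gene. The Kif14 entry spanned 136467598 to 136467897 (plus strand), and the gene began at 136466301. The Kif2c entry spanned 117178723 to 117179022 (minus strand), and the gene reached 117182624. Kif1a and Kif27 also had entries inside the gene. For 29 of 35 member promoters, bases shortly after the start lay in a GENCODE transcript of the gene. TTTGAA was present in 9 of 11 mitotic genes with an entry, Kif14 and Kif2c among them. It was present in 3 of 20 other members, Kif1a and Kif27 among them, and in 20.2% of all 27025 genes with a promoter. Within 25 bases on either side of the start it was present in 7 of 11 mitotic genes, in 1 of 20 other members (Kif26b) and in 3.1% of all genes. CCAAT was present in 7 of 11 mitotic genes, in 7 of 20 other members and in 41.1% of all genes. The 7 mitotic promoters with TTTGAA close to the start are shown from 70 bases before it to 30 after, 5′ to 3′ on the gene's strand, since this motif was found in most of the mitotic promoters; capitals mark TTTGAA or, where it lies on the other strand, TTCAAA.
Kif11 (chr19:37376312-37376411, plus strand): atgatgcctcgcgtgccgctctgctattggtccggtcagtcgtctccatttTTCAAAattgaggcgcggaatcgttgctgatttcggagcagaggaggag
Kif15 (chr9:122951011-122951110, plus strand): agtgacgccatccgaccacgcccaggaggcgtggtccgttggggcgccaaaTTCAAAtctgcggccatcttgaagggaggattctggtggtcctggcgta
Kif22 (chr7:127042391-127042490, minus strand): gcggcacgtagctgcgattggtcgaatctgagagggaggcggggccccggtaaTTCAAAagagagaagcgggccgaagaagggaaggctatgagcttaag
Kif23 (chr9:61946770-61946869, minus strand): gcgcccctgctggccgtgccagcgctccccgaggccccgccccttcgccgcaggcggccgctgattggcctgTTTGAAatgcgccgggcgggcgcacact
Kif18b (chr11:102925095-102925194, minus strand): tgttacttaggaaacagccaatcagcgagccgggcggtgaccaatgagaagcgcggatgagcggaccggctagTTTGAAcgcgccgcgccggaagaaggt
Kif20b (chr19:34922288-34922387, plus strand): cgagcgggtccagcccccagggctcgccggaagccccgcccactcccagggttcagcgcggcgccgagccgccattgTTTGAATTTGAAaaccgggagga
Kif4 (chrX:100625995-100626094, plus strand): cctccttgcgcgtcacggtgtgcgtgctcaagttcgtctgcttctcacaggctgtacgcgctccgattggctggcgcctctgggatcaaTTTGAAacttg
In Kif11 and Kif15 the motif starts 19 bases before the start of the gene, and in Kif23 and Kif18b it lies just after it. Kif20b carries it as a tandem pair. A match is a description of these windows and not a measured binding site.

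Ribosome-bound RNA held less mitotic kinesin RNA than total RNA of the same tissue in both organs. Kif15, a motor that backs up Kif11 at the spindle (chromosome 9, 122951081 to 123018733, plus strand), had 17.1, 15.2 and 14.5 RPKM in the brain transcriptome and 7.86, 6.99 and 6.25 RPKM in the brain translatome (log2 fold change -1.12 ± 0.08, adjusted p = 5.1e-08). In kidney the libraries were closer, with 31.5, 31.6 and 31.1 RPKM in total RNA and 26.8, 27.1 and 25.8 RPKM on ribosomes (-0.24 ± 0.04, adjusted p = 2.1e-04). That kidney call was lost in the single fit of all 21 samples and without any 1 of the kidney transcriptome libraries, where adjusted p reached 0.051. Kif20b, a late-mitosis motor also known from neuron polarity, had 9.54, 7.71 and 7.5 RPKM in brain total RNA and 3.59, 2.91 and 2.98 RPKM on ribosomes (-1.35 ± 0.10). In kidney it changed by -0.54 ± 0.06. Kif11 changed by -1.06 ± 0.07 in brain and -0.63 ± 0.05 in kidney.

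In all, 17 of 38 members were lower in the brain translatome than in the transcriptome, where 18.5% of 19446 rows were lower. Another 1 was higher, against 18.6% of rows, and 20 did not pass, with 37.1% of rows called in either direction. In kidney 16 of 37 were lower, against 15.8% of 19336 rows. There 2 were higher, against 14.9% of rows, and 19 did not pass, with 30.7% of rows called. Over 5 RPKM, 15 of 26 members were lower in brain, where 25.3% of 9794 rows were, and 16 of 29 in kidney, where 25.4% of 9992 rows were. The mitotic list held 10 of the 17 lower members in brain and 9 of the 16 in kidney, and its 11 detected members spanned -1.35 to -0.20 in brain and -0.68 to -0.17 in kidney. None was higher. Erythroid markers, the other cell type list that moved most, were lower too, 4 of 6 in brain (median -2.06) and 5 of 5 tested in kidney (median -2.81). Their summed level went from 337.4 ± 133 to 138.9 ± 47.7 RPKM in brain and from 501.9 ± 156 to 134 ± 40.2 RPKM in kidney, and their part in the members' values was not tested. The proliferation genes gave 6 of 12 lower in brain and 7 of 12 in kidney, with medians of -0.33 and -0.36. Transcript length moved with this comparison. The middle range of the members' lengths was 3533 to 6483 bases. The mRNA rows within it had a median of -0.21 in brain and -0.14 in kidney. Over mRNA rows of any length the medians were 0.02 and -0.00. Of the detected mitotic members, Kif22, Kif20a, Kif2c, Kif18a, Kif18b and Kif23 were shorter than this range and Kif14 was longer. The part of length in the members' values was not tested. The count of 10 lower mitotic kinesins in brain was the same in each alternative run, and that of kidney ranged from 8 to 10.

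Among the other members, the shift to lower values on ribosomes reached Kif5a in brain (61.0 ± 2.6 to 39.7 ± 1.3 RPKM, log2 fold change -0.61 ± 0.06), Kif1a (-0.38 ± 0.06), Kif1b (-0.33 ± 0.06), Kif21a (-0.50 ± 0.06), Kif3a (-0.46 ± 0.06) and Kif5b (-0.40 ± 0.05). Of these, Kif1a lost the call in the single fit (adjusted p = 0.017) and Kif1b without brain transcriptome replicate 3 or brain translatome replicates 1 or 2 (adjusted p up to 0.0025). Kif24, a kinesin of the centriole that restrains ciliation, changed by -1.13 ± 0.11 in brain and -0.79 ± 0.07 in kidney. Kif5c (-0.02 ± 0.06) and Kif21b (0.06 ± 0.07) did not pass in brain. Kif3c was the only member called higher, from 66.5, 65.4 and 68.5 RPKM to 76.8, 78.2 and 80.1 RPKM. Its log2 fold change was 0.26 ± 0.05 (adjusted p = 7.8e-04), and the call was lost when any 1 library was left out and under 4 other alternatives (adjusted p up to 0.0048). In kidney Kif1c (0.31 ± 0.04, adjusted p = 4.3e-05) and Kif26a (0.26 ± 0.04, adjusted p = 5.8e-04) were higher on ribosomes. Kif26a lost the call without any 1 library other than kidney transcriptome replicate 2 (adjusted p up to 0.0049). Kidney Kif3a had a change of -0.95 ± 0.06.

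Same-numbered libraries of these groups come from the same tissue sample. With the replicate number as a block, Kif13b (adjusted p = 9.6e-05) and Kif7 (4.7e-04) joined the lower members in brain. In kidney Kif14, Kif13b, Kif21b, Kif2a, Kif3b, Kif5a, Kif5c and Kif7 joined the lower ones, for 24 in all, and Kif13a the higher ones. The weight on a variance shared by all rows (median prior degrees of freedom) was infinite in that kidney fit and 5.98 without the block. The added kidney calls therefore rest on the shared variance. Calls rose over all rows too. With the block the lower rows went from 3596 to 4433 of 19446 in brain and from 3049 to 4860 of 19336 in kidney. The unpaired kidney value of Kif5a was -1.08 ± 0.20 (adjusted p = 0.0011), at 0.522, 0.56 and 0.575 RPKM in total RNA and 0.22, 0.331 and 0.193 on ribosomes.

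The change from total to ribosome-bound RNA itself differed between the organs for 3 members, all more negative in brain, where 6.47% of 20108 rows were called, 4.12% on that side and 2.35% on the other. They were Kif15 (difference of log2 fold changes -0.89 ± 0.10, adjusted p = 2.0e-05), Kif20b (-0.83 ± 0.13, adjusted p = 3.9e-04) and Kif1c (-0.44 ± 0.06, adjusted p = 5.7e-05). Kif20b lost the call when any 1 of 6 libraries was left out (adjusted p up to 0.0013). With the replicate block, Kif11 (-0.45, adjusted p = 1.0e-06), Kif14 (-0.45, 5.9e-05) and Kif1a (-0.36, 4.6e-04) joined on the same side and Kif3a on the other (0.47, 7.9e-07). Over all rows the block moved 829 calls on that first side to 1978, and 472 on the other to 1467.

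**Figure D4:**
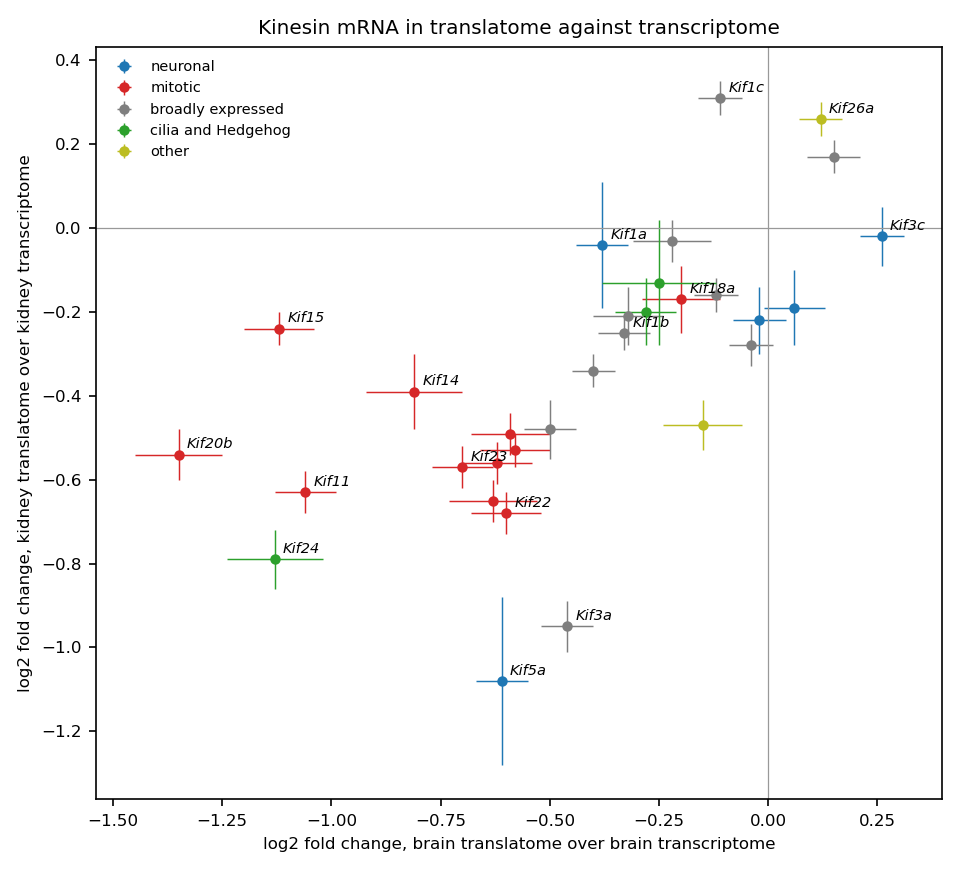
Log2 fold change of translatome over transcriptome in brain (horizontal) and kidney (vertical) for the members outside the low rows Kif2b, Kif4-ps, Kif12, Kif6, Kif9, Kif17 and Kif19a, coloured by role, with SE as error bars. The 11 mitotic kinesins lie at negative values in both organs, Kif15 and Kif20b being shifted farther in brain.

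Members of several role lists differed between brain EC and the brain translatome. Kif1c was at 9.53, 10 and 9.46 RPKM in the brain translatome and at 45.1, 51.3 and 45.5 RPKM in brain EC, with a log2 fold change of 2.58 ± 0.08 (adjusted p = 6.4e-12), the largest of any member in this comparison. Kif13b, a vesicle carrier, read 4.87, 4.45 and 4.37 RPKM against 9.97, 9.68 and 11.4 RPKM (1.47 ± 0.08). Kif16b rose from 2.18 ± 0.078 to 4.45 ± 0.43 RPKM (1.32 ± 0.09) and Kif26a from 41.8 ± 1.7 to 72.2 ± 2.4 RPKM (1.08 ± 0.07). These 4 calls held in every alternative run.

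The neuronal kinesins did not move together in brain EC. Kif3c fell from 76.8, 78.2 and 80.1 RPKM to 21.3, 20 and 21.9 RPKM (log2 fold change -1.60 ± 0.07), Kif21b from 147 ± 11 to 58.8 ± 5.9 RPKM (-1.03 ± 0.10) and Kif5c from 130 ± 6.7 to 53.3 ± 6.5 RPKM (-1.0 ± 0.09). By mean RPKM these 3 stood at 26.9%, 40% and 41% of their brain translatome level, and the 8 neuron markers, all called lower, at 13.1% to 39.8%. Kif17 stood at 49.8%, at under 1 RPKM in both groups, and was not called (-0.74 ± 0.23, adjusted p = 0.012). Kif1a and Kif5a were the neuronal members with the highest percentages. Kif1a had 67.6, 70.3 and 71.8 RPKM in the brain translatome and 74.6, 70.2 and 82.7 RPKM in brain EC, or 109% of its level, and the libraries overlapped. Kif5a had 41.2, 39.2 and 38.6 RPKM against 39, 37 and 42.6 RPKM, or 99.7%. The fitted log2 fold changes, which include composition factors, were 0.41 ± 0.08 for Kif1a (adjusted p = 5.7e-04) and 0.29 ± 0.07 for Kif5a (adjusted p = 0.0033). The Kif1a call was lost under total-count scaling (log2 fold change 0.11, adjusted p = 0.24), with the count filter, in the single fit and without brain EC replicate 1 or 3 or any 1 brain translatome library. Kif5a passed in the single fit (adjusted p = 5.5e-04), with DESeq2 (3.6e-04) and without brain EC replicate 2 (5e-04), and stood at -0.01 without composition factors (adjusted p = 0.90). Kif1b was likewise at 109% of its level, with 78.6, 73.9 and 94.1 RPKM in brain EC and a fitted value of 0.39 ± 0.10 (adjusted p = 0.0029). The part of RNA carried over from neurons in these levels was not tested.

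Markers of other cells that are not neural also moved in the brain EC libraries. Of the 5 stromal markers of the kidney list, 4 were higher than in the brain translatome and 1 lower, with a summed 109.3 ± 31.5 RPKM against 71.05 ± 6.4. Of the 8 epithelial markers 2 were higher, Cdh1 at 7.87 against 0.989 RPKM and Ret at 3.53 against 0.909 RPKM, and of 5 pericyte markers 1 was higher and 4 lower. The part of such cells in the kinesin values was not tested.

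In brain EC 19 of 37 members were higher, 7 lower and 11 not past the threshold, with 46.2% of 19103 rows called, 24.8% as higher and 21.4% as lower. Over 5 RPKM, 21 of 25 members and 62.9% of 9739 rows were called. The scale mattered here. Without composition factors the median of all rows moved from -0.01 to -0.30, the members split into 11 higher and 7 lower, and all rows into 3397 higher and 6002 lower in place of 4740 and 4084. Of the mitotic list 10 of 12 were higher, among them Kif23, the central spindle motor of cytokinesis, at 14.2, 12.1 and 11.8 RPKM in the brain translatome and 25, 20.2 and 24.6 RPKM in brain EC (log2 fold change 1.16 ± 0.09). Under total-count scaling 6 of 12 were higher, and without 1 library between 7 and 11. Kif2c, Kif18a and Kif4 were called although their libraries overlapped in RPKM. The proliferation genes gave 10 of 12 higher with composition factors, and their calls under total-count scaling were not examined.

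Kidney EC shared part of this pattern against its own organ. Kif26a rose from 12.3, 12.2 and 11.7 RPKM in the kidney translatome to 43.5, 46.3 and 44.3 RPKM in kidney EC, a log2 fold change of 2.25 ± 0.06 (adjusted p = 4.4e-10), and its share of the Kif26 signal from 38.9% ± 0.26 to 86.1% ± 3.82. Kif26b fell from 19.5, 19 and 18.4 RPKM to 6.64, 5.42 and 9.74 RPKM (-1.02 ± 0.17, adjusted p = 3.4e-04), a call lost without kidney EC replicate 1 or kidney translatome replicates 1 or 3 (adjusted p up to 0.0032). The 5 kidney stroma markers were at 18.9% to 86.9% of their translatome level in the same libraries. Kif5c fell from 5.54, 5.78 and 6.47 RPKM to 1.58, 1.58 and 2.38 RPKM (-1.32 ± 0.15). Kif1b (0.74 ± 0.08), Kif1c (0.64 ± 0.06) and Kif5b (0.48 ± 0.06) were higher, of which Kif1b and Kif26a alone kept the call under total-count scaling among the 10 higher members.

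Of 37 members tested in kidney EC, 10 were higher, 4 lower and 23 not past the threshold, with 31.7% of 18940 rows called, 16.7% as higher and 15% as lower. Over 5 RPKM, 13 of 26 members were called, and the share of all rows over that level was not computed. Without composition factors the median of all rows moved from -0.04 to -0.41, the members split into 2 higher and 11 lower, and all rows into 1564 higher and 5655 lower in place of 3163 and 2837. The mitotic list gave 5 of 12 higher (Kif14, Kif18b, Kif22, Kif23 and Kif4), between 2 and 8 without 1 library and 0 under total-count scaling, so these calls depended on the scale. With composition factors the proliferation genes gave 10 of 12 higher, and their calls under total-count scaling were not examined. Kif7, the Hedgehog regulator of the cilium tip, changed by -0.52 ± 0.10 (adjusted p = 9.3e-04) and lost the call without any 1 of 5 libraries or with the count filter.

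The enrichment over the organ differed between brain and kidney endothelium for 11 members, 7 on the side of brain and 4 on that of kidney, where 25.1% of 19764 rows were called, 16.5% and 8.6% respectively, and the median of all rows was 0.155. Kif1c (difference of log2 fold changes 1.96 ± 0.09), Kif16b (1.75 ± 0.14), Kif26b (1.70 ± 0.21) and Kif13b (1.14 ± 0.17) were on the side of brain in every alternative run. Against the organ translatome Kif16b had 1.32 ± 0.09 in brain and -0.40 ± 0.09 in kidney (adjusted p = 0.0030, not called), and Kif26b 0.65 ± 0.08 in brain, not called without composition factors (0.35, adjusted p = 0.0014), and -1.02 ± 0.17 in kidney. Kif3c (-1.62 ± 0.09), Kif26a (-1.14 ± 0.08) and Kif3b (-0.69 ± 0.11) were on the side of kidney in every alternative run. With composition factors no mitotic kinesin passed this test with edgeR on the 12 libraries, their differences running from 0.18 to 0.64 without Kif2b. Kif20b, at 0.64 ± 0.15 (adjusted p = 0.0016), passed without them (0.69, adjusted p = 6.5e-04), in the single fit (adjusted p = 9.5e-04) and without brain translatome replicate 1 or kidney EC replicate 1 (adjusted p down to 4.0e-04), and Kif20a and Kif23 passed in the single fit and without brain EC replicate 2 or kidney EC replicate 1.

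**Figure D5:**
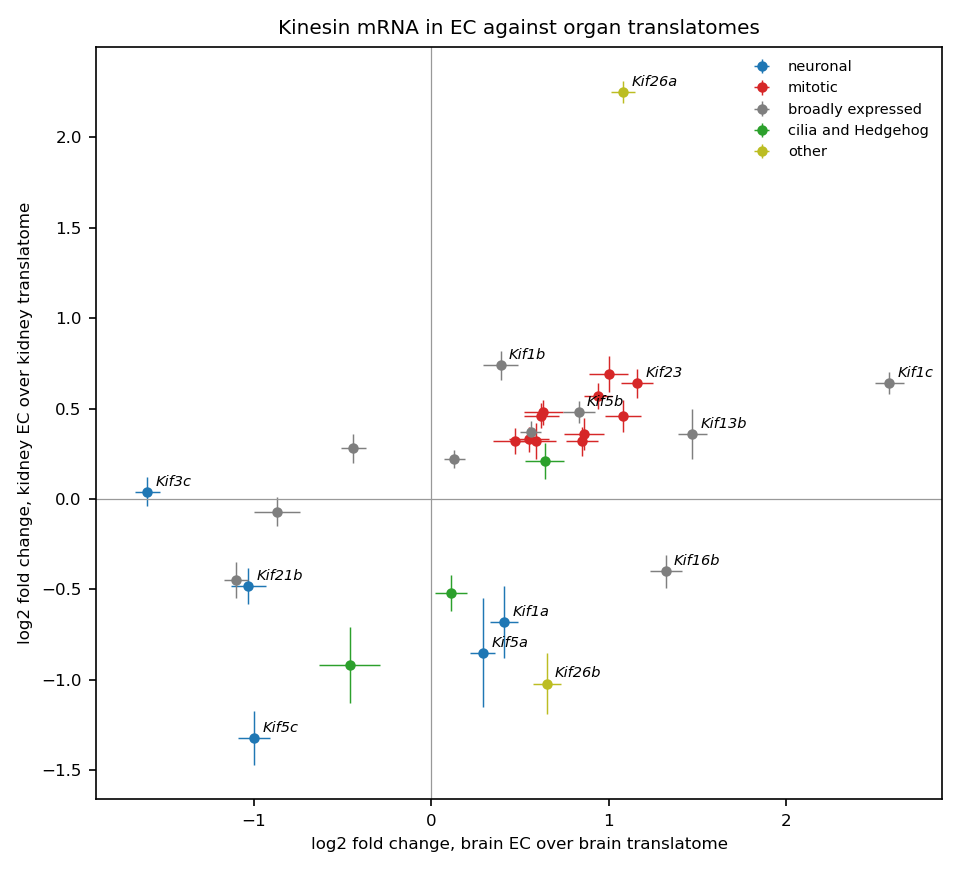
Log2 fold change of EC over organ translatome in brain (horizontal) and kidney (vertical), with composition factors, for the members outside the low rows Kif2b, Kif4-ps, Kif12, Kif6, Kif9, Kif17 and Kif19a, coloured by role, with SE as error bars. Kif1c lies farthest along brain (2.58), Kif26a along kidney (2.25), and Kif3c, Kif5c and Kif21b at -1.60 to -1.0 in brain, apart from Kif1a and Kif5a.

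Compared directly, brain EC and kidney EC held 12 members higher in brain, 12 lower and 12 not past the threshold of 36 tested, with 37% of 19238 rows called, 20.1% as higher and 16.9% as lower. These rows include weakly expressed ones. Over 5 RPKM, 20 of 27 members were called, and the share of all rows over that level was not computed. Kif5a was at 39, 37 and 42.6 RPKM in brain EC and at 0.0821, 0.092 and 0.116 RPKM in kidney EC (log2 fold change 8.68 ± 0.13, adjusted p = 1.4e-11). Kif1a (6.19 ± 0.21), Kif5c (4.89 ± 0.18) and Kif21b (3.97 ± 0.12) were also higher in brain EC. The 8 neuron markers were all higher as well, at a summed 529 ± 62.9 RPKM in brain EC and 17.1 ± 1 in kidney EC, and their part in these values was not tested. Kif26a was higher in brain EC by 0.74 ± 0.07. Kif1c was not called, at 47.3 ± 3.5 and 41.4 ± 0.65 RPKM (0.24 ± 0.07, adjusted p = 0.019), nor was Kif5b, at 40.8 ± 5.6 and 43.9 ± 2.1 RPKM (-0.06 ± 0.10, adjusted p = 0.61). Of 11 mitotic kinesins tested, 10 were lower in brain EC, from -1.31 ± 0.12 for Kif15 to -0.53 ± 0.09 for Kif22, as were 11 of 12 proliferation genes. Kif4, Kif22 and Kif23 lost the call without brain EC replicate 1 or kidney EC replicates 1 or 3, and Kif23 also without brain EC replicate 2 (adjusted p up to 0.0031). Same-numbered libraries of these groups deviated together, and with the replicate block Kif3b (0.38, adjusted p = 7.3e-04) and Kif27 (0.93, adjusted p = 8.8e-04) joined the higher members.

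Against the whole brain translatome, 19.4% of the members tested were called in the Emx1-lineage, near the share of all rows. There 6 of 36 were higher, 1 lower and 29 not past the threshold, with 22.1% of 19006 rows called, 9.2% as higher and 12.8% as lower. Kif26b had the largest called change, from 4.51, 4.66 and 4.89 RPKM to 6.9, 6.49 and 6.9 RPKM (log2 fold change 0.59 ± 0.06, adjusted p = 9.3e-07). Kif21b rose from 135, 151 and 156 RPKM to 186, 184 and 179 RPKM (0.37 ± 0.06), with libraries that did not overlap. The mitotic members Kif4 (0.48 ± 0.06), Kif18a (0.44 ± 0.07), Kif11 (0.43 ± 0.06) and Kif18b (0.34 ± 0.07) were higher, and 8 of 12 mitotic kinesins did not pass. Kif18b lost the call with the replicate block (adjusted p = 0.0027) and in 7 other alternatives, and Kif11, Kif18a, Kif21b and Kif26b lost theirs in the single fit of all samples. Kif1c was the lower member, from 9.53, 10 and 9.46 RPKM to 7.51, 7.75 and 7.34 RPKM (-0.31 ± 0.05, adjusted p = 1.4e-04). It lost the call without Emx1-lineage replicate 3 (adjusted p = 0.0011). In the same libraries the 9 endothelial markers were all lower, with a summed 15.2 ± 1.13 RPKM. This was not particular to endothelium. All 5 markers each of macrophages, pericytes, kidney stroma and ventral telencephalon were lower as well, and 0 of 5 erythroid markers. The part of any of these cells in the Kif1c value was not tested. Without composition factors all rows split into 1183 higher and 2778 lower in place of 1749 and 2442, and the members into 5 higher and 1 lower.

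The ciliary members were low throughout. Kif7 was the most abundant, from 4.5 ± 0.46 RPKM in brain EC to 11.5 ± 0.4 in the kidney transcriptome, where it was higher than in brain (log2 fold change of brain over kidney -0.67 ± 0.07). Kif9, a kinesin of motile cilia, stood at 1.66 ± 0.043 RPKM in the brain transcriptome and 0.642 ± 0.042 in that of kidney (1.58 ± 0.12), and Kif19a, which sets cilium length, at 0.507 ± 0.085 and 0.118 ± 0.014 (2.29 ± 0.23). Kif27, a relative of Kif7, was at 1.89 ± 0.15 and 1.35 ± 0.19 RPKM, with a call (0.69 ± 0.11, adjusted p = 2.6e-04) that was lost without composition factors and without brain transcriptome replicate 1 or 2 (adjusted p up to 0.0028). Kif6 did not pass in total RNA (0.65 ± 0.16, adjusted p = 0.0041).

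The genes that work with kinesins were taken from lists outside the rule, and their counts in the brain and kidney transcriptomes stand beside the 27.2% of all rows that were higher in brain and the 26.3% that were lower. Of 10 other kinesins and kinesin subunits, 5 were higher in the brain transcriptome and 4 lower. Klc1, the light chain that couples Kif5 heavy chains to cargo, was higher in brain by 2.24 ± 0.04, Kifap3, the non-motor subunit of the Kif3 complex, by 1.32 ± 0.03 and the minus-end motor Kifc2 by 2.70 ± 0.10. The mitotic motors Cenpe (-0.87 ± 0.08) and Kifc1 (-0.58 ± 0.08) were lower, the latter with a near-identical copy, Kifc5b, that can share its reads. Of 12 cargo adaptors 10 were higher in brain and none lower, and of 21 dynein and dynactin genes 15 were higher and 3 lower. Kifc3, a minus-end motor of adherens junctions, was higher in endothelium, by 1.94 ± 0.07 over the brain translatome and 1.25 ± 0.08 over that of kidney.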

How the data were processed

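Reads per gene and RPKM were deposited for each of 21 libraries. Per the labels and methods, the authors aligned reads with RUM to GRCm38 (mm10), counted reads on refGene transcripts without normalization with rpkmforgenes and derived the deposited RPKM with the same program. Differential tests used the deposited counts: edgeR 4.0.16 in R 4.3.3, TMM factors, the quasi-likelihood test on the 6 libraries compared (12 for a difference of fold changes) and on rows with at least 1 count, with Benjamini-Hochberg adjustment over all rows and a threshold of 0.001. The SE is the log2 fold change over the square root of F. The procedure was tested on simulated data. Levels and shares used RPKM. Members' coordinates come from RefSeq (GRCm38.p6). Named genes were the members, by role list, and the pathway, marker and proliferation lists fixed with them. The members, role lists, pathway lists, proliferation list and motifs were chosen with earlier results of these data known.

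Same-numbered translatome and transcriptome libraries share a tissue sample per the study's supplement, and their deviations from group means correlated (r 0.505 to 0.62). For brain EC and kidney EC r was 0.155 to 0.265, so the numbers were treated as pairing. For these and for the other comparisons the labels give only a shared number. In brain against kidney transcriptome r was 0.455, -0.106 and 0.246 for the 3 numbers. In the translatomes it was 0.335, -0.08 and 0.177. Not every number deviated together there, and these numbers were not treated as pairing. Alternatives were RLE size factors, total counts without composition factors, DESeq2 1.42.0, at least 10 counts in 3 samples, the replicate block, a single fit of 21 samples and leaving out each replicate.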

Additional observations from a re-analysis of the deposited data

Results flagged for a closer look

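The following differences between the organs passed the test of the difference itself, brain minus kidney on the log2 scale. For the change from transcriptome to translatome these were Kif15 at -0.89, Kif20b at -0.83 and Kif1c at -0.44. Kif1c was higher on ribosomes in kidney (0.31 ± 0.04) and did not pass in brain (-0.11 ± 0.05, adjusted p = 0.10).

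For EC against organ translatome the members on the side of brain were Kif1c at 1.96, Kif16b at 1.75, Kif26b at 1.70, Kif5a at 1.18, Kif13b at 1.14, Kif1a at 1.11 and Kif7 at 0.66. Those on the side of kidney were Kif3c at -1.62, Kif26a at -1.14, Kif3b at -0.69 and Kif21a at -0.63. For Kif5a, brain EC read 39.6 ± 2.8 RPKM against 39.7 ± 1.3 in the brain translatome, and kidney EC 0.0966 ± 0.017 against 0.248 ± 0.073 in the kidney translatome, which was not called (adjusted p = 0.032). Kif7 lost the call in 12 alternatives (adjusted p up to 0.0036), Kif1a in 9 (up to 0.0022), Kif21a in 5 (up to 0.0018) and Kif5a in 4 (up to 0.0030).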

How the results depend on the processing

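Of all values of single members under the alternatives, 4595 kept their side of the threshold, 160 fell below it and 108 rose past it. Among values called in either run, 1 turned: Kif13a in kidney EC against kidney translatome, from 0.37 to -0.00 without composition factors (adjusted p = 0.98). Values that passed in neither run were counted as kept even where their sign changed, as for Kif5a in brain EC. RLE size factors moved 4 values, 3 of them below the threshold and 1 past it. Without composition factors the members called higher numbered 11 in brain EC (19 in the report) and 2 in kidney EC (10), and those lower 11 in kidney EC (4). DESeq2 gave 9 lower in kidney EC, 1 higher for the organ difference of translatome against transcriptome (0) and 7 lower for that of EC (4). The single fit gave 12 lower in kidney EC, 2 higher in the Emx1-lineage (6) and 11 higher for the organ difference of EC (7). The 1 member higher in the brain translatome than transcriptome became 0 with RLE, without composition factors, with the count filter and in the single fit. With the replicate block the organ difference of translatome against transcriptome had 1 higher and 6 lower (3). Besides the calls named in the report, the block changed that of Kif3a in the organ difference of EC (-0.78, adjusted p = 9.1e-04). The cause of these shifts was not tested.

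Without 1 replicate, the higher members numbered 0 to 0 (brain translatome against transcriptome), 1 to 2 (kidney, same comparison), 14 to 22 (brain EC), 6 to 13 (kidney EC), 5 to 8 (Emx1-lineage) and 4 to 11 (organ difference of EC), and the lower ones 2 to 7 (kidney EC), 0 to 1 (Emx1-lineage), 8 to 12 (brain EC against kidney EC) and 2 to 4 (organ difference of translatome against transcriptome). Of the subfamily shares, 84 moved by over 1 SD when summed reads replaced RPKM, 1 when RPKM under 0.1 was set to 0 and none without a replicate. Over all rows, the organ difference of translatome against transcriptome had 472 higher and 829 lower, against 1467 and 1978 with the block and 1107 and 1562 with DESeq2. The block moved kidney translatome against transcriptome from 2880 higher and 3049 lower to 4636 and 4860, and the Emx1-lineage from 1749 higher to 1116 (1164 with the count filter).

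The kidney translatome libraries were the shallowest. Members with few reads (Kif2b, Kif4-ps, Kif12 in brain) gave no usable fold change, and 3 libraries a group limit what a difference in SD can show.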
